A study of Sus scrofa domesticus with 2 samples.

Results

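Of the 1185 cells in the library of cultured pig aorta ECs (endothelial cells), 94 were PECAM1+ cells with few detected genes. They were chosen by measured values. A member had more than 200 and fewer than 5000 detected genes, 1% to under 30% of its UMIs (unique molecular identifiers, each marking 1 captured transcript) from 13 mitochondrial genes, at least 1 PECAM1 UMI, and more UMIs of PECAM1 than of COL1A1 and COL1A2 together. Within the same limits, 581 aorta cells had 5000 or more detected genes, and these deep cells are the comparison throughout. In the lung library of 5946 cells, the rule of the members was met by 5275 cells.

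The aorta next to the lung of domestic pigs (Sus scrofa domesticus) was sealed and filled with digestion buffer, and the cells that came off were grown untreated with 10% fetal calf serum. ECs from the perfused lung were grown in the same medium. There was 1 library of each, so levels have no replicate error and no test was made. Cells are not replicates, and the intervals given are exact 95% intervals that cover counting error only. The range of gene numbers is that of the cell filter in the study's methods, whereas the lower mitochondrial limit is not part of that filter. Applied here, that filter leaves fewer aorta cells than the study counted. The labels name no number of animals and no passage.

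ECs line blood vessels and hold to each other through junctions that contain PECAM1 and CDH5 (VE-cadherin). Those of arteries use Notch signalling and couple through the connexin GJA5. In culture ECs attach to a matrix that they deposit themselves, divide, and answer interferon and cytokines with a set of inducible genes.

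The members differed widely in depth. They had 567 to 33818 UMIs per cell, with a median of 9431, against a median of 57099 in the deep cells. Detected genes ranged from 416 to 4995, with a median of 2911, against 6743 in the deep cells. Together the members held 1113056 UMIs and the deep cells 34656769. A count of 0 in the members therefore allowed up to 2.70 CPM (the UMIs of a gene per 1000000 UMIs, both summed over a group of cells), taken as 3 counts. The median mitochondrial share was 7.58% in members and 6.66% in deep cells. Of the 321 aorta cells in the range of gene numbers, 109 had under 1% mitochondrial UMIs and 77 had 30% or more. A further 38 had no PECAM1 UMI and 3 had as many collagen UMIs as PECAM1 UMIs or more. Of 5 cell barcodes found in both libraries, 0 belonged to members and 3 to deep cells.

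**Figure D1:**
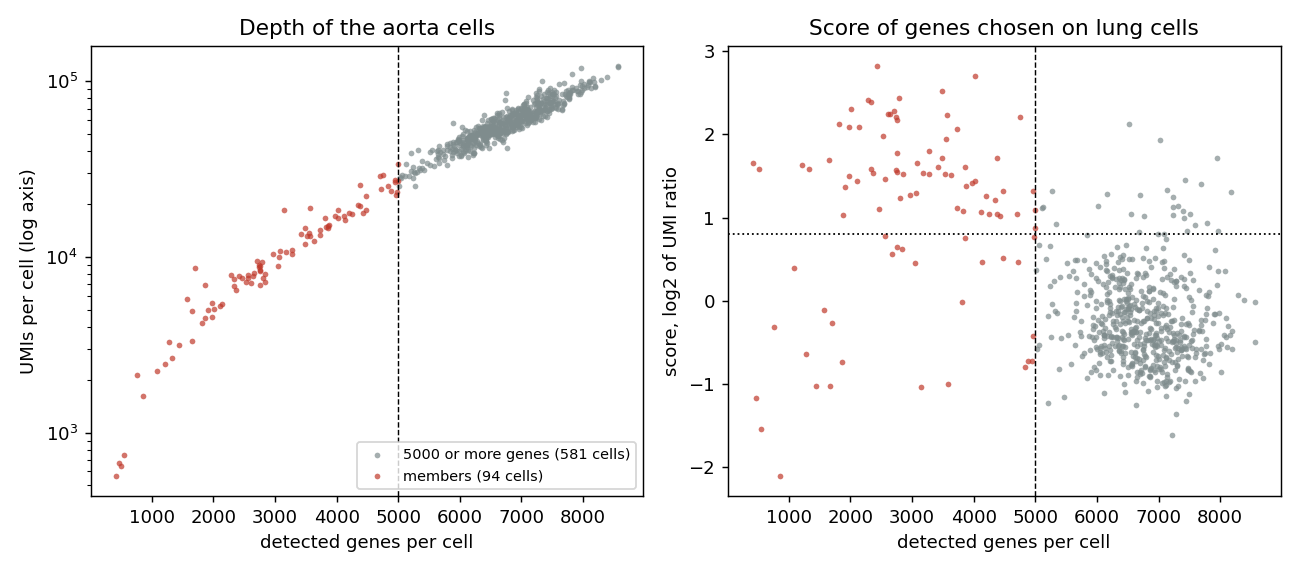
The 675 aorta cells of the rule, 1 point per cell, with detected genes on the x axis and, on the y axes, UMIs on a log axis (left) and a log2 score of genes chosen on lung cells (right). Members are red and deep cells grey, the dashed line marks 5000 genes and the dotted line the 95th percentile of the deep cells' score. Above the dotted line lie 66 members and 29 deep cells.

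At equal depth the gap in detected genes nearly closed. When 3100 UMIs were drawn from each cell, with 9 shallower members left out, the members had a median of 1402 genes and the deep cells 1463. The middle 50% of cells ranged from 1335 to 1451 genes in members and from 1412 to 1511 in deep cells. At 9400 UMIs per cell, the medians were 2901 in 47 members and 2999 in the deep cells.

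The endothelial markers PECAM1, MYCT1, S1PR1, GJA5 and CDH5 were near or above their level in the deep cells. PECAM1, the junction protein that chose them and so a description only, was at 1226 CPM in members (1162 to 1293) and 1294 CPM in deep cells. MYCT1, an endothelial transmembrane protein, was at 128 CPM (108 to 151) against 84.3 CPM. S1PR1, a receptor for sphingosine 1-phosphate, was at 189 CPM (164 to 216) against 180 CPM. GJA5, the arterial connexin, was at 370 CPM (335 to 408) against 255 CPM, and 33.7% of its UMIs came from 2 members. CDH5 was at 249 CPM against 193 CPM. After thinning to 3100 UMIs, CDH5 had a UMI in 55.3% of members (44.1% to 66.1%) and 42.5% of deep cells (38.5% to 46.6%). It had one in 2.08% of the aorta cells with more collagen than PECAM1 UMIs, whose median before thinning was 59208 UMIs. MYCT1 was seen in 35.3% of members and 23.8% of deep cells. S1PR1 was seen in 36.5% and 38.0%. GJA5, higher by CPM, was seen in 36.5% of members (26.3% to 47.6%) and 42.5% of deep cells (38.5% to 46.6%).

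Not every defining gene of ECs was present. VWF, the haemostatic factor that ECs store, had 0 UMIs in the members and 7 in the deep cells. KDR, the main receptor for VEGF, had 1 UMI in the members and 13 in the deep cells. Of 19 measured genes of endothelial surface and junctions, 8 were above and 11 below the deep cells, 0 of them 2-fold, and the median log2 ratio of members over deep cells was -0.06. Of 17 endothelial transcription factors, 0 differed 2-fold, with a median of -0.03. Across all 6054 genes at 20 CPM or more in either group, the median was -0.02. Of these, 47.5% were above the deep cells and 52.5% below, 1.02% at least 2-fold higher and 2.21% at least 2-fold lower, so that 0 of a list this short is near the background. These shares are the background of every list described here.

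The immune, epithelial, lymphatic and erythroid markers named here were absent, and those of smooth muscle and pericytes were low. All 6 immune markers (PTPRC, CD68, CSF1R, C1QA, C1QB and CD3E), the epithelial genes EPCAM and CDH1, the lymphatic genes PROX1, LYVE1 and PDPN, and HBB were at 0 UMIs in the members. The 7 smooth muscle and pericyte markers summed to 179 CPM in members, 248 CPM in deep cells and 3741 CPM in the collagen-high aorta cells, with CNN1 and RGS5 at 0 in members. Over single members that sum ran from 0 to 2468 CPM, with a median of 55.7. TAGLN, an actin-binding protein of contractile cells, made up most of it, and 40.7% of its UMIs in members lay in 2 cells. The 7 fibroblast markers include both collagens of the rule. They summed to 222 CPM in members, 192 in deep cells and 11193 in the collagen-high cells, with COL6A1 at 0 in members. The rule fixes part of the gap to the collagen-high cells, so that gap is a description only. Over single members the fibroblast markers ran from 0 to 1550 CPM. Without thinning, a UMI of these markers was found in 71 members (75.5%) and 96.4% of deep cells. COL1A1 or COL1A2 had a UMI in 48 members.

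By UMIs, COX1, COX3, TMSB10, RPS20, RPS12, COX2, EEF1A1, RPS2, RPLP1 and THBS1 led in the members. TMSB10, which binds actin monomers, was at 12911 CPM against 13051 CPM in deep cells, and THBS1, a matrix glycoprotein, at 6252 CPM against 4897 CPM. The mitochondrial genes are part of the rule and are given as description. COX1 was at 30450 CPM against 22447 CPM, ND5 at 2571 against 1313 CPM and ND4L at 221 against 74.1 CPM, while CYTB was at 2538 against 2551 CPM.

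Most genes were close to the deep cells. Of 3355 genes at 50 CPM or more in either group, the genes of the rule left out, 82.7% differed less than 1.5-fold. At least 2-fold higher in members were 24 genes (0.715%) and at least 2-fold lower were 57 (1.7%). Cells were sorted by gene number to form these groups, so nothing beyond size is read from these counts.

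The higher genes were of more than one kind. Of the 24, 14 had 50% or more of their member UMIs in 2 cells, 5 had 20% to under 50%, and 5 had less. The 5 genes with under 20% were CA14, APH1A, YWHAE, EGR1 and WBP1L, which was 2.20-fold higher. EGR1 was just within that limit, at 19.2%. Among the 57 lower genes, 0 had 50% or more of their UMIs in 2 members.

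CA14, a membrane carbonic anhydrase, had 145 UMIs spread over 58 of the 94 members, with at most 13 in 1 cell. Its level was 130 CPM (110 to 153) against 22.5 CPM (21.0 to 24.2) in deep cells, 5.78-fold higher. At 3100 UMIs per cell, 35.3% of members (25.2% to 46.4%) and 7.57% of deep cells (5.56% to 10.0%) had a CA14 UMI, against 6.94% of the collagen-high cells. The gene lies on the reverse strand of chromosome 4 (Sscrofa11.1, chr4:98821577-98828934). APH1A, a subunit of gamma-secretase, lies on the forward strand beside it (chr4:98817574-98821255), and in RefSeq the facing ends of the genes are 321 bases apart. APH1A was at 123 CPM (103 to 146) against 36.3 CPM, 3.39-fold higher, with UMIs in 55 members. Whether reads of one gene were counted for the other was not tested.

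YWHAE, a 14-3-3 adaptor protein, had UMIs in 87 members and was at 579 CPM (536 to 626) against 267 CPM. EGR1, an immediate early transcription factor, was at 262 CPM (233 to 294) against 114 CPM, with UMIs in 60 members. SEC61A1, the channel through which proteins enter the endoplasmic reticulum, was at 239 CPM (211 to 269) against 128 CPM. At 3100 UMIs per cell, YWHAE was seen in 81.2% of members and 53.5% of deep cells, and SEC61A1 in 54.1% and 32.0%. EGR1 was seen in 36.5% of members (26.3% to 47.6%) and 31.8% of deep cells (28.1% to 35.8%), and with another random draw in 44.7% (33.9% to 55.9%) and 28.2% (24.6% to 32.1%), so whether its intervals overlapped depended on the draw. CNP, 3.06-fold higher by CPM, had 52.7% of its UMIs in 2 cells, and TSC22D1, 2.12-fold higher, had 42.4%. The other named genes, SULF1, MFSD14B, GLUL (glutamine synthetase), UBE2L6 and SAT1 (which acetylates polyamines), were 1.82-fold to 1.98-fold higher. Without the 2 members that held most interferon-stimulated UMIs, GLUL was 1.10-fold and UBE2L6 1.19-fold higher, and SULF1, MFSD14B and SAT1 were 1.46-fold to 1.79-fold higher. The log2 ratio of CNP then fell from 1.61 to 0.61 and that of TSC22D1 from 1.08 to 0.36, so both were less than 2-fold higher.

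The interferon-stimulated genes were higher in sum and lower in the typical cell. Their list held 26 measured genes, of which 7 were at least 2-fold higher and 0 lower (1.02% and 2.21% of all genes at 20 CPM or more), with a median log2 ratio of 0.55. IFIT1, which binds foreign RNA, was at 491 CPM against 171 CPM, IFIT2 at 197 against 32.9 CPM, and the guanylate-binding protein GBP1 at 103 against 36.3 CPM. Yet 2 of the 94 members held 2922 of the list's 6104 UMIs, 47.9%, with 5.34% of all member UMIs. They had 1679 and 1243 UMIs of the list. The same pair held 84.8% of the UMIs of the chemokine CCL5 and 75.8% of those of IFIT1. Without these 2 cells the list's median was -0.34, with 1 gene at least 2-fold higher and 3 lower. IFIT1 was then at 125 CPM, IFIT2 at 19.9 CPM and CCL5 at 57.9 CPM, each below the deep cells. Per cell, the list took a median of 0.111% of UMIs in members and 0.198% in deep cells, with highest cells at 5.82% and 6.16%. The member at 5.82% had only 567 UMIs and was not of that pair, whose cells were at 4.96% and 4.84%.

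MGP, an inhibitor of calcification made by vessel wall cells, was at 656 CPM against 149 CPM, and 63.7% of its UMIs came from 2 cells. Most members had none: it was seen in 34 of 94. Among members with 4000 or more genes it stood at 1258 CPM, and in the bins from 2000 and 3000 genes at 57.8 and 89.8 CPM, with 432 CPM in the bin from 1000 genes. When members were limited to under 4000 genes, the log2 ratio of MGP turned from 2.14 to -0.22 and that of IFIT1 from 1.52 to -0.60. Without the 2 interferon cells, MGP was at 561 CPM and 10 genes were at least 2-fold higher, of which 8 were among the 24.

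**Figure D2:**
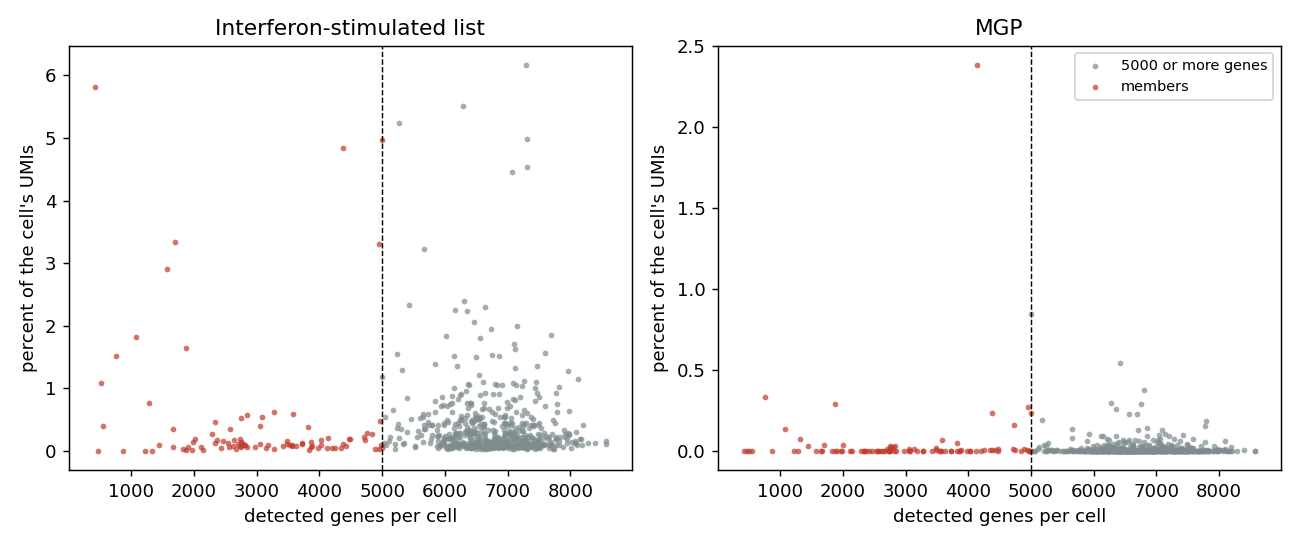
Percent of each aorta cell's UMIs from the interferon-stimulated list (left) and from MGP (right) against its detected genes, 1 point per cell, members in red and deep cells in grey, with a dashed line at 5000 genes. A few members stand far above the rest: the highest reached 5.82% for the list, in a cell with 567 UMIs, and 2.38% for MGP. The medians of members were 0.111% and 0.

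The arterial list, with 10 measured genes, had a median log2 ratio of 0.35, with 2 genes at least 2-fold higher and 0 lower (1.02% and 2.21% of all genes). Those 2 were MGP and CXCR4, a chemokine receptor at 20.7 CPM against 4.79 CPM with 82.6% of its UMIs in 2 cells. JAG1, a Notch ligand, was at 137 against 93.4 CPM. HEY1, a Notch target, was at 55.7 against 68.6 CPM. The 2 measured venous genes were lower in members: VCAM1, an adhesion molecule for leukocytes, at 2584 CPM against 3863 CPM, and SELP at 387 against 448 CPM. Within matrix and basement membrane, 20 of 28 genes were above the deep cells (47.5% of all genes), with a median of 0.21, and 0 were at least 2-fold higher and 1 lower. NID1, a laminin-binding protein, was at 61.1 against 34.7 CPM and the metalloproteinase inhibitor TIMP3 at 181 against 115 CPM. The TGF-beta and BMP list had a median of 0.22, with BMPR2, a BMP receptor, at 278 against 179 CPM, and ID1, a BMP target, at 187 against 284 CPM.

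Genes of division were lower. Of 21 measured G2M genes, 20 were below the deep cells and 6 at least 2-fold lower (52.5% and 2.21% of all genes), with a median log2 ratio of -0.70. DLGAP5, a spindle protein, was at 35.0 CPM (24.9 to 47.9) against 104 CPM. CKS2, which binds cyclin-dependent kinases, was at 62.0 against 163 CPM, and CCNB1 (cyclin B1) at 30.5 against 70.1 CPM. CENPA, the centromeric histone, was the exception at 20.7 against 11.97 CPM. Of 17 S phase genes 15 were below the deep cells, with a median of -0.41, and the 1 gene at least 2-fold lower is near the background of 2.21%. At 3100 UMIs a UMI of the G2M list was found in 71.8% of members (61.0% to 81.0%) and 81.9% of deep cells (78.6% to 85.0%), so most members still had one. These levels also moved with gene number among the deep cells: CKS2 was at 75.9 CPM in cells with 5000 to under 6000 genes and 217 CPM in the topmost bin. Fewer dividing cells and less RNA per dividing cell cannot be told apart here.

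Several sets of housekeeping genes were lower as well. Of 68 nuclear genes of oxidative phosphorylation, 58 were below the deep cells (52.5% of all genes), with a median of -0.41, and 1 was at least 2-fold lower (2.21% of all genes). NDUFA8 and NDUFAB1, both of complex I, were at 80.0 against 177 CPM and 118 against 254 CPM. Of 37 cytoskeletal genes 29 were below, with a median of -0.31, and 2 were at least 2-fold lower. The tubulin TUBB4B was at 109 CPM (90.2 to 130) against 316 CPM and the myosin heavy chain MYH9 at 62.9 against 129 CPM. ACTB (beta-actin) was higher at 2461 against 1513 CPM, and its share of a cell's UMIs had a median of 0.277% in members and 0.150% in deep cells. All 36 measured subunits of the proteasome, a set chosen after its values were seen, were below the deep cells, with a median of -0.64 and 3 of them at least 2-fold lower (52.5% and 2.21% of all genes). PSMD7, a lid subunit, was at 98.8 against 207 CPM. SRSF7, a splicing factor, was at 80.9 against 233 CPM, and APOA1, the apolipoprotein of high-density lipoprotein, at 128 against 354 CPM. NME1 (a nucleoside diphosphate kinase), the peroxiredoxin PRDX4, NUDT1, the kinetochore protein SPC24, ACADM (which oxidizes medium-chain fatty acids) and EEF1E1 were 2.10-fold to 2.38-fold lower.

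Ribosomal protein genes were slightly higher: 43 of 57 were above the deep cells (47.5% of all genes), with a median of 0.12 and 0 at least 2-fold higher. RPS28 led with 1278 CPM against 743 CPM. Their share of a cell's UMIs had a median of 16.4% in members and 14.3% in deep cells, and it spread more in members, from 4.80% to 23.0%.

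Of the remaining lists, immediate early and heat shock genes (median -0.13, 19 genes), endoplasmic reticulum stress (0.03, 18 genes), p53 targets and apoptosis (0.06, 16 genes), lysosome and autophagy (0.09, 21 genes), antioxidants (-0.10, 16 genes), glycolysis (-0.15, 16 genes), translation factors (0.01, 19 genes) and large nuclear transcripts (-0.01, 21 genes) had medians near 0. Within the first of these, the chaperone HSPB1 was at 327 against 649 CPM beside the higher EGR1. Of the 16 genes of p53 targets and apoptosis, 2 were at least 2-fold higher and 0 lower (1.02% and 2.21% of all genes). PMAIP1 (NOXA), an apoptosis gene and p53 target, was at 71.0 against 22.4 CPM with 74.7% of its UMIs in 2 cells. TP53INP1, also a p53 target, was 2.05-fold higher with 42.2% of its UMIs in 2 cells, and 2.13-fold higher without the 2 interferon cells. Inflammatory genes had a median of -0.22 (16 genes), with IL1A at 26.1 and 68.2 CPM. Cholesterol synthesis had -0.27 (17 genes), MHC and antigen presentation -0.23 (9 genes), vasoactive and haemostatic genes -0.03 (14 genes), fibroblast and mesenchymal genes -0.05 (6 genes), and TAGLN, the 1 measured gene of smooth muscle, -0.46. None of the genes of the immune, erythroid, epithelial and lymphatic lists reached 20 CPM.

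The lung library allowed the same question to be put to other cells. Its 376 cells of the rule with under 2000 genes were set against its 4899 with 2000 to under 5000 genes. This split was chosen after the lung values had been seen, and the libraries share no cells. Over the 2927 genes at 50 CPM or more in both comparisons, the log2 ratios of the aorta and lung had a Pearson's r of 0.73 and a Spearman's rho of 0.77 across genes, which are not independent and share their length and annotation. With the lung cells split at 1500 genes r was 0.73, and at 2500 genes 0.34.

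CA14 was at 128 CPM in the lung cells with few genes and 21.9 CPM in the others, 5.85-fold, and APH1A at 127 and 33.8 CPM, 3.75-fold. YWHAE was at 420 and 237 CPM and SEC61A1 at 155 and 97.6 CPM. TUBB4B was at 147 and 300 CPM, and SRSF7 at 101 and 185 CPM. Of the 57 genes lower in members, 49 were measured in the lung comparison, and 49 were below 0 there, where 57.1% of all genes were. Of the 24 higher genes 8 were measured and 6 were above 0, where 42.9% of all genes were. The genes of the interferon and MGP cells were not part of this. IFIT1 was at 56.2 and 67.7 CPM, MGP at 14.2 and 16.3 CPM, and EGR1 at 64.9 and 59.7 CPM. CNP was at 37.2 and 31.1 CPM.

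**Figure D3:**
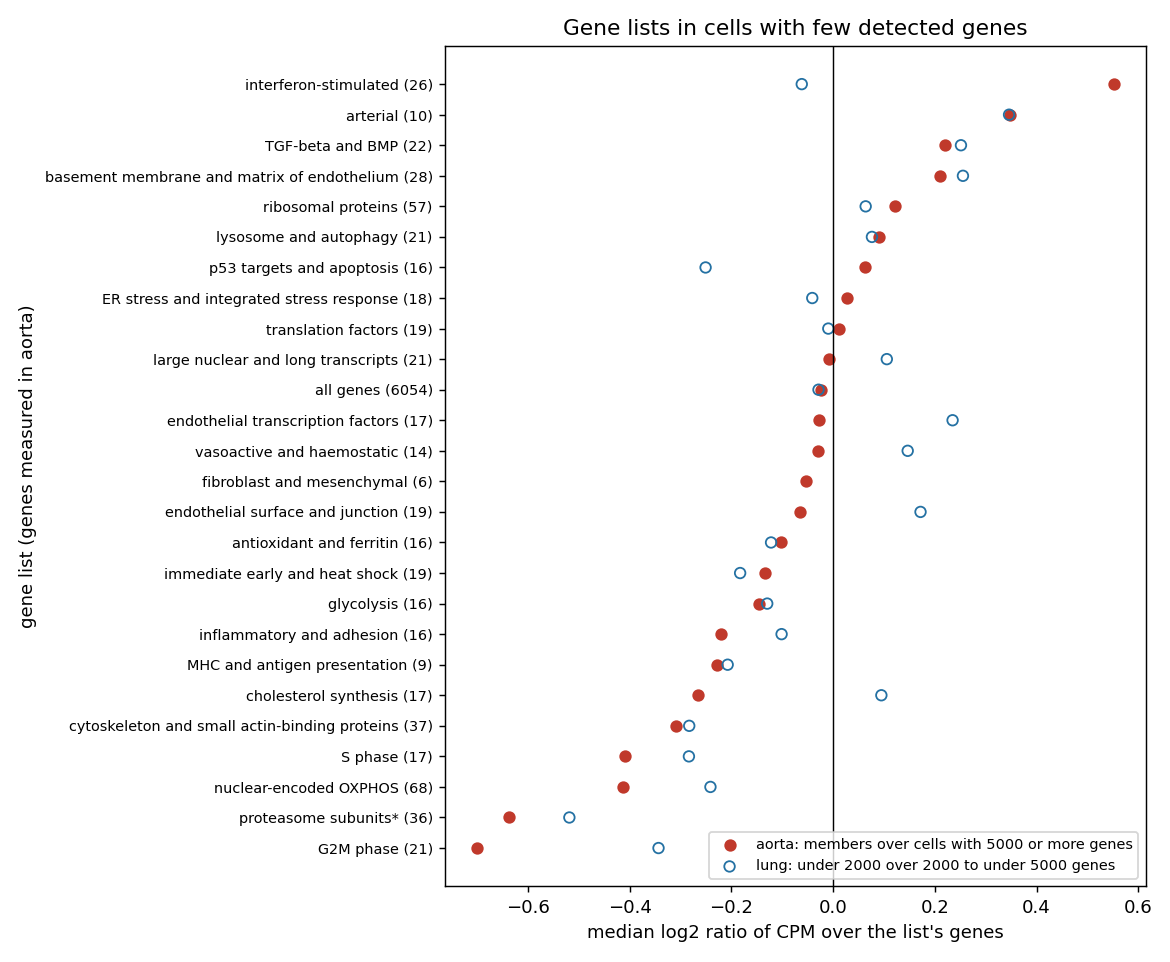
Median log2 ratio of CPM over the measured genes of each list with 5 or more such genes (y axis, number in brackets; the asterisk marks the list chosen after its values were seen), for aorta members over deep cells (filled) and for lung cells with under 2000 genes over those with 2000 to under 5000 genes (open). Lists of G2M, proteasome, oxidative phosphorylation and cytoskeleton genes lie below 0 in both libraries, while the interferon list lies at 0.55 in the aorta and -0.06 in the lung.

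Cells with the same gene number did not have the same levels in both libraries. The 73 members with 2000 to under 5000 genes (median 13169 UMIs) had CA14 at 131 CPM (110 to 155), whereas the 4899 lung cells of the same range (median 9666 UMIs) had 21.9 CPM (20.7 to 23.2). In those groups PSMD7 was at 95.2 and 200 CPM, and SRSF7 at 82.7 and 185 CPM. Tissue and library cannot be told apart in this comparison.

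Over bins of gene number in the aorta, CA14 was at 134, 197, 99.4 and 123 CPM from 1000 up to 5000 genes, and at 30.4 CPM in deep cells with 5000 to under 6000 genes and 24.9 and 18.8 CPM in the bins above. The 6 members with under 1000 genes had 6361 UMIs in all and 0 of CA14. Close to the limit CA14 was not higher in members, while YWHAE still was. The 10 members with most genes (4725 to 4995) had CA14 at 45.5 CPM (12 UMIs) and YWHAE at 375 CPM, and the 10 deep cells with fewest (5005 to 5239) had 59.8 CPM (18 UMIs) and 239 CPM.

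**Figure D4:**
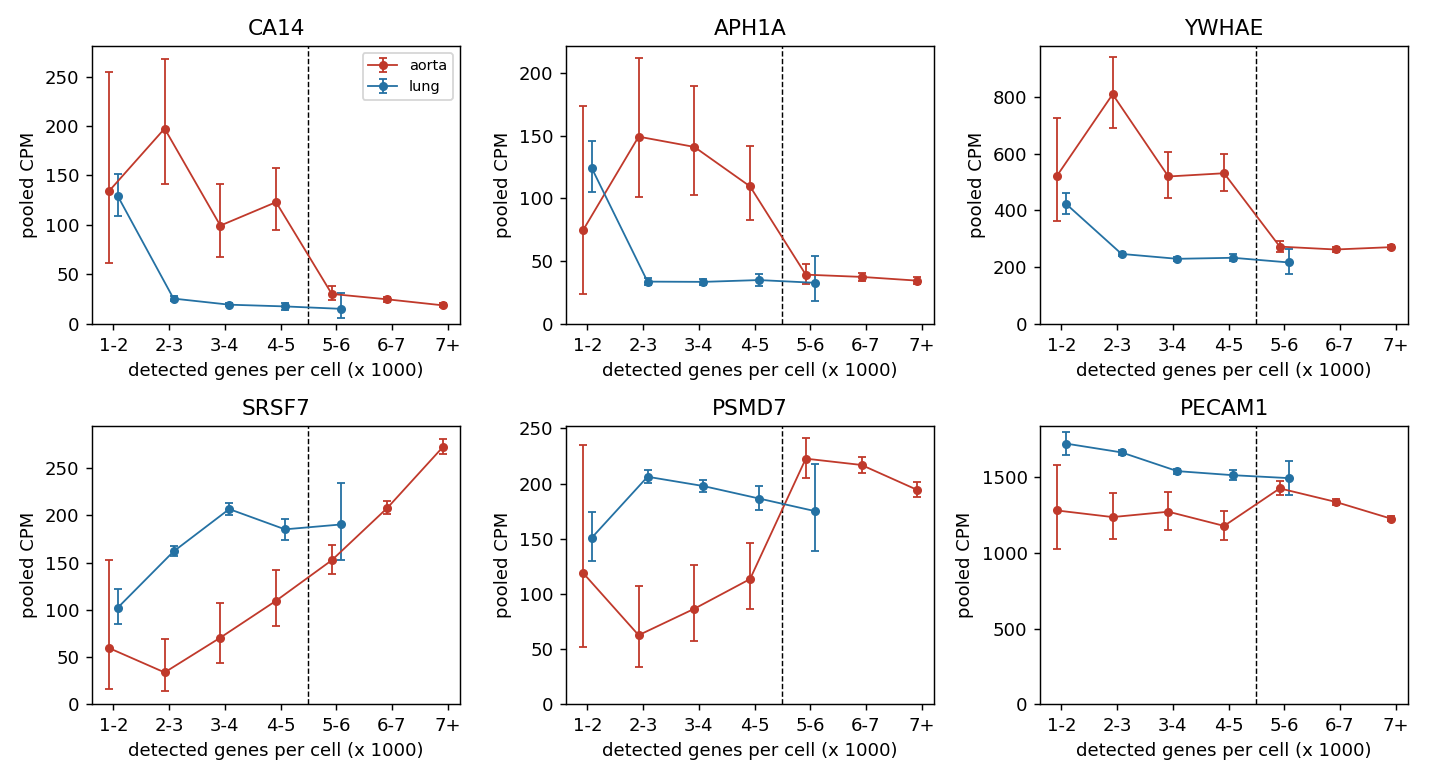
Pooled CPM of 6 genes (y axes) in bins of detected genes per cell (x axes, in units of 1000) for aorta (red) and lung (blue) cells of the rule, with exact 95% Poisson intervals as bars and a dashed line at 5000 genes. Cells with under 1000 genes (6 in the aorta, 50 in the lung) and the 2 lung cells with over 6000 genes are not drawn. CA14, APH1A and YWHAE are high in the aorta up to 5000 genes and in the lung only below 2000, SRSF7 and PSMD7 are low there, and PECAM1 is nearly level.

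To see whether all members shared this pattern, a score was made from lung cells alone: the 100 genes highest and the 100 lowest in the lung cells with few genes, at 100 CPM or more. A cell's score was the log2 ratio of its UMIs from the first and the second set. Of the first set 94 genes were above 0 in members, and of the second 98 below 0, against 44.3% and 55.7% of all genes tested. The members' scores had a median of 1.37 and ran from -2.10 to 2.82. Those of the deep cells had a median of -0.33, and their 95th percentile was 0.80. When the deep cells were thinned to the UMI totals of members, their median was -0.32 and their 95th percentile 0.80.

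Above that percentile lay 66 of the 94 members (70.2%), and 28 lay at or below it. The cut divides a continuous range, with 12 members within 0.25 of it. Median depth and mitochondrial share differed little between the sides, at 10165 and 8378 UMIs, and 7.72% and 7.32%. The score did vary with gene number. Its median was -0.74 in members with under 1000 genes and 1.03 in the bin from 1000. In the bins from 2000, 3000 and 4000 genes it was 1.58, 1.52 and 1.04. Score genes such as CA14 and GJA5 differ between the sides by construction. MGP, outside the score, was at 212 CPM in the 66 cells and 1694 CPM in the 28, but single cells held most of its UMIs. Of the 565 MGP UMIs of the 28 cells, 386 lay in 1 cell. Of the 165 in the 66 cells, the 2 interferon cells held 79 and 60. EGR1, also outside the score, was at 334 CPM in the 66 cells and 95.9 CPM in the 28. Interferon-stimulated genes took a median of 0.102% of UMIs in the 66 cells and 0.304% in the 28, and ribosomal protein genes, 2 of which are in the score, 17.2% and 13.1%.

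Across genes, the ratio followed transcript length. RefSeq gave a transcript for 2957 of the 3355 genes (88.1%). The median log2 ratio was -0.24 for 365 genes below 1000 bases and -0.27 for 744 genes of 1000 to under 2000 bases. The 893 genes of 2000 to under 4000 bases had -0.00, the 474 of 4000 to under 6000 had 0.14, and the 481 longer ones had 0.16. The lung comparison gave -0.18, -0.19, -0.03, 0.08 and 0.14 in the same bins. By exon number the medians ran from -0.14 (under 5 exons) to 0.09 (20 or more). Genes of proteins with a hydrophobic segment, as found in membrane and secreted proteins, had a median of 0.02 (955 genes) against -0.09 for the other 1955. At transcripts of 2000 to under 4000 bases these were 0.11 and -0.09, and below 2000 bases -0.26 and -0.26. Per cell, genes with such a segment took a median of 29.0% of the UMIs of nuclear genes with a protein, in members and in deep cells. A low level of short transcripts and a high level of long ones cannot be told apart in CPM, since they share 1 total.

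Against all 5275 lung cells of the rule, the members were highest in MGP (656 against 16.2 CPM), the sulfatase SULF1 (102 against 3.97 CPM) and the connexin GJA1 (460 against 59.3 CPM). They were also 5.24-fold to 7.28-fold higher in IFIT1, ACOD1, OAS2, CXCL8, CA14, PTGS2 and PAM. Without the 2 interferon cells IFIT1 was 1.86-fold, OAS2 3.15-fold and ACOD1 2.68-fold higher than in the lung, and CXCL8, CA14, PTGS2 and PAM 4.91-fold to 5.66-fold. The largest difference the other way was SERPINB2, an inhibitor of plasminogen activators, at 11.7 against 300 CPM. TAGLN was at 174 against 958 CPM and APOA1 at 128 against 695 CPM, and RCAN2, ADM, FILIP1, ANGPTL4, AREG and PPP1R14A were 4.10-fold to 6.18-fold lower. Most of these genes set both aorta groups apart from the lung: SULF1 was at 51.3, GJA1 at 330, CXCL8 at 2964 and SERPINB2 at 5.08 CPM in the deep cells.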

How the data were processed

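The deposited counts are UMIs per gene and cell, made by the authors with Cell Ranger 3.0.2 (per the labels) on the Ensembl annotation of Sscrofa11.1. They were not normalized or filtered on genes per cell. The aorta library held 46080859 UMIs and the lung library 57213236. A symbol from a name table was given to 1051 features known only by identifier.

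Members, deep cells and lung cells were chosen as described, and UMIs were summed per group and divided by its total (CPM). The members and gene lists were chosen with earlier results of these data known. Intervals are exact Poisson for levels and Clopper-Pearson for shares. A fold against 0 took 3 counts. Named genes were the rule's genes, the most extreme and the defining genes of each list, the 15 with the largest fold each way and a symbol at 100 CPM or more (for higher genes with a UMI in 25% of members), the 10 most abundant, and 10 each way against the lung. Some genes that this rule names are not reported here. WBP1L, PSMD7 beside its list, CXCR4, and genes named for their spread over cells were chosen after their values were seen. Cells were thinned without replacement to 3100 UMIs, the 10th percentile of members rounded down. Hydrophobic segments were windows of 19 residues with a mean Kyte-Doolittle value of 1.6 or more, or of 8 residues at 2.5 within the first 30. Scrublet called 10 of 844 aorta cells, 0 of them members. The fold step was tested on simulated data. Python 3.11.15, numpy 2.4.6, scipy 1.17.1, scanpy 1.11.5 and biopython 1.88 were used. Alternatives covered the limits of the rule, scaling, thinning, floors and doublets.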

Additional observations from a re-analysis of the deposited data

Results flagged for a closer look

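CCL5, a chemokine that draws T cells, was the 1 gene with at least 2-fold differences in opposite directions in the libraries. It was 3.60-fold higher in members than in deep cells, at 360 and 100 CPM. In the lung it was 9.25-fold lower in cells with under 2000 genes than in those with 2000 to under 5000. That these differ was not tested, since each contrast rests on 1 library. In the members 84.8% of the CCL5 UMIs came from 2 cells. Without these 2 cells CCL5 was at 57.9 CPM, below the deep cells, so the opposite directions rest on them. Few lung cells carried it: at 3100 UMIs per cell, 3.54% had a CCL5 UMI.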

How the results depend on the processing

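With members limited to under 4000 genes, 39 genes were at least 2-fold higher and 168 lower, and to under 3000 genes (48 members) 77 and 266, against 24 and 57 as reported. With the mean of per-cell CPM they were 38 and 97, and with a floor of 20 CPM 62 and 134. With no lower mitochondrial limit 27 were lower, and the median log2 ratio of smooth muscle genes turned to 2.09, since ACTA2 joined TAGLN above 20 CPM (4.16 and 0.02). The median of the interferon list turned to -0.43 and -0.031 at under 4000 and under 3000 genes. At under 4000 genes MGP turned to -0.22 and IFIT1 to -0.60, and at under 3000 genes GLUL turned to -0.13 and SAT1 to -0.33. In alternatives chosen after seeing the data, leaving out the 2 interferon cells left 10 higher genes and turned the list's median to -0.34 and IFIT1 to -0.45, and the 66 members of high score, picked against the same deep cells so that larger counts follow from the choice, gave 76 higher and 310 lower genes. The cause of these shifts was not tested. Of the list medians under these settings, 447 moved by less than 0.25, 8 by more and 4 turned. Median genes of members at equal depth were 95.1% to 96.7% of the deep cells' over 4 settings. No paired analysis was possible because each tissue has 1 library. With 1113056 UMIs in members, a gene near 50 CPM rests on few UMIs, and 1 library per tissue gives no error between cultures.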
